A study of Rattus norvegicus with 4 samples.

Results

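The 4 Hox clusters and the stretches on both sides of them were examined by Hi-C in primary rat Schwann cells. They were taken as 560 bins of 10 kb in 4 windows of the rat build rn6, set by their coordinates: HoxA at chr4:81500001-83000000 (150 bins), HoxB at chr10:83500001-84800000 (130 bins), HoxC at chr7:144000001-145200000 (120 bins) and HoxD at chr3:60900001-62500000 (160 bins). The numbered chromosomes and X hold 277880 bins. Of the 560 bins, 514 held enough contacts within their chromosome (at least 0.25 of the median bin) to be measured, which is 91.8%, against 88.5% of all bins. They form 33490 measured pairs of 39420.

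Hox genes encode homeodomain transcription factors that give cells their position along the body axis, and each cluster keeps its genes in the order of their numbers. Clusters often sit between large gene-poor stretches, called deserts, that hold enhancers, and in limb development the HoxD genes switch their contacts from the desert on one side to that on the other. The border between the domains on either side lies within or beside the cluster and depends on CTCF and cohesin. Adult cells, Schwann cells included, keep a Hox pattern that reflects the level of the body they came from.

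Schwann cells are the glia of peripheral nerve. The cells came from rat sciatic nerve and were grown in medium with serum, forskolin and heregulin. For 48 hours they carried either Lenti-AS, a lentivirus that overexpresses the antisense RNA of the Egr2 promoter (Egr2-AS), or Lenti-GFP, a virus carrying GFP as control, both at 2 viral units per cell with polybrene. The labels call the control the backbone virus, while the study's methods name pLVX-DsRed-Express2-N1 as the vector of Egr2-AS and pLVX-AcGFP1-N1 as the control, so vector and antisense RNA cannot be told apart here. Each group had 2 libraries, made with the Arima kit from equal numbers of cells. The labels do not say whether these came from separate animals or cultures, so the tests below measure the spread between libraries, which may be technical. Hi-C gives no RNA level, so neither the identity of the cells nor the activity of any Hox gene could be checked here.

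The libraries held 94956821 and 110770015 contacts in Lenti-GFP and 74811640 and 70488877 in Lenti-AS, and both Lenti-AS libraries were shallower. The windows held 113474 and 130726 contacts between their own bins in Lenti-GFP and 89564 and 85337 in Lenti-AS, between 0.118% and 0.121% of each library. Contacts within a chromosome were therefore scaled by what each library held at equal distance, as an observed over expected ratio in which 1 is the genome's mean for that distance. A single 10 kb pair is covered thinly, and intervals given below are exact 95% Poisson intervals that cover counting error only.

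No gene annotation of rn6 was used here, so no Hox gene was placed on the windows. RefSeq's table for the newer build GRCr8 was used for names and neighbours only. It lists 39 Hox genes, of which 11 are in HoxA, 10 in HoxB, 9 in HoxC and 9 in HoxD. Along the GRCr8 chromosomes HoxA lies between Skap2, an adaptor protein gene, and Evx1, a homeobox gene. HoxB runs from Hoxb13 to Hoxb1, between Ttll6, which encodes a tubulin-modifying enzyme, and Skap1. HoxC runs from Hoxc13 to Hoxc4, between Tbcal1 and the DNA repair gene Smug1, with Cbx5 (heterochromatin protein HP1 alpha) and Hnrnpa1 (an RNA-binding protein) beyond it. HoxD runs from Hoxd13 to Hoxd1, between the homeobox gene Evx2 and Mtx2, a gene of a mitochondrial import protein.

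The clusters also carry 6 microRNA genes in that table, and these show how alike the clusters are as copies of one another. Mir196b lies in HoxA, Mir196c and Mir10a in HoxB, Mir196a and Mir615 in HoxC and Mir10b in HoxD. The mature 5p sequences of the miR-196 and miR-10 families follow, 5′ to 3′, with the seed (bases 2 to 8) in capitals.
rno-miR-196b-5p (HoxA): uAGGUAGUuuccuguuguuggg
rno-miR-196c-5p (HoxB): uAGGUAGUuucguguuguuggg
rno-miR-196a-5p (HoxC): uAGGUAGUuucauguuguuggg
rno-miR-10a-5p (HoxB): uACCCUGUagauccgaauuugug
rno-miR-10b-5p (HoxD): cCCUGUAGaaccgaauuugugu
The 3 members of the miR-196 family share 1 seed and match at 21 of 22 positions, while the mature ends that RefSeq gives for miR-10a and miR-10b set different seeds.

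Promoter sequences (250 bases before and 50 after the start, RefSeq, GRCr8) were given for 20 of the 39 Hox genes, with 21 starts. The letters CG, the same on both strands, were counted in each. All 21 held at least 1 CG, as did 94.5% of 33469 promoters of the genome, and the median was 22 CGs (range 6 to 49) against 7. Of the 21 starts 10 were in HoxA and 9 in HoxD, so the median stands for these clusters. HoxB and HoxC had 1 each, with 9 and 6 CGs. The promoters of the genes at the ends of HoxD are shown as examples, with CG in capitals. Neither gene was placed on a side of the border described below.
Hoxd13, chr3:79977827-79978126 of GRCr8, plus strand: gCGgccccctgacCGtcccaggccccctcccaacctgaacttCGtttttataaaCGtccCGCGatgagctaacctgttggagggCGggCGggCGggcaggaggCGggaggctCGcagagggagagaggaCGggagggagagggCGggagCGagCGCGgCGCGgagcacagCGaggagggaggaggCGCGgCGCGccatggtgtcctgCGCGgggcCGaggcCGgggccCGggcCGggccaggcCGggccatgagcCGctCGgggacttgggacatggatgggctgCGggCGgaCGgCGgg
Hoxd1, chr3:80072791-80073090 of GRCr8, plus strand: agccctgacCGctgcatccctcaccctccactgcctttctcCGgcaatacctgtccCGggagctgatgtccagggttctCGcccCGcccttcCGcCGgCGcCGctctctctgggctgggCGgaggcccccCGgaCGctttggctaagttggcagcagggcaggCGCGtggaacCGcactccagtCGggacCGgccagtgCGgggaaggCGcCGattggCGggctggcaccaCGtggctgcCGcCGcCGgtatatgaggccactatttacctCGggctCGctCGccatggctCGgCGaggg
Hoxd13 held 36 CGs and Hoxd1 held 30, both above the genome's median of 7, as were 20 of the 21 starts. Neither exceeded the genome's 95th percentile of 36, as 2 of the 21 did. Whether these sites were bound or methylated was not measured.

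Parts of the windows could not be measured. In HoxA the first 200 kb (chr4:81500001-81700000) held no contact in any library. A second stretch of 140 kb (chr4:82170001-82310000), at the middle of the window, held 7 cis and 65 trans contacts over its 14 bins and the 4 libraries, where a measured bin had a median of 2015 cis and 327 trans contacts. In HoxC a stretch of 70 kb (chr7:144280001-144350000) held 47 cis contacts. Gaps of this kind are common, with 1530 runs of 5 or more unmeasured bins in the genome. The contacts of the middle of HoxA are thus known from 6 of 20 bins only, whereas all 160 bins of HoxD were measured.

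**Figure D1:**
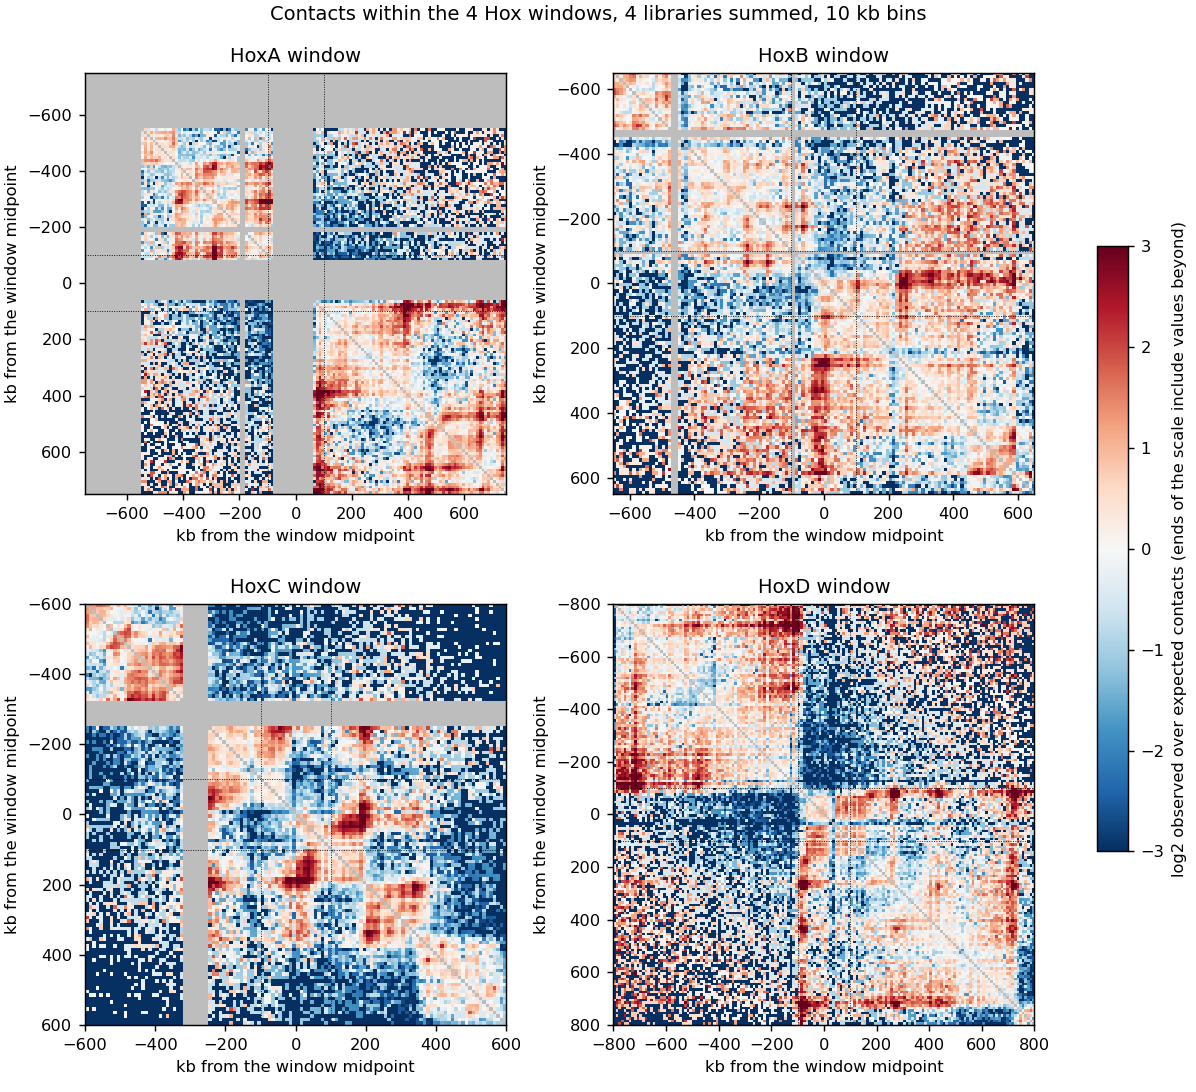
Contacts within the HoxA, HoxB, HoxC and HoxD windows with the 4 libraries summed. Both axes give the distance in kb of a 10 kb bin from the window midpoint, colour gives log2 of observed over expected contacts (red above, blue below the genome's mean at that distance), grey marks unmeasured bins, and dotted lines bound the central 200 kb. HoxD is parted into 2 squares at the start of its centre, and in HoxA the centre is mostly grey.

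The strongest border of the 4 windows lay in HoxD. It was measured with the insulation score, the log2 of the observed over expected contacts between the 200 kb before a bin and the 200 kb after it, so that low scores mark borders. At chr3:61610001-61620000 the score was -2.68 and -2.51 in Lenti-GFP and -2.53 and -2.30 in Lenti-AS, from 150, 196, 129 and 143 contacts across the bin. With the libraries summed it was -2.51, in the lowest 0.67% of 228787 bins, and it ranked 388 by score and 263 by depth below its surroundings among 8009 local minima of the genome. The groups overlapped at this bin. The difference of 0.18 on the log2 scale (SE 0.13) did not pass the test (edgeR quasi-likelihood, adjusted p = 0.38).

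The second border of HoxD lay near the end of the window, at chr3:62420001-62430000, with scores of -1.799 and -1.68 in Lenti-GFP and -1.66 and -1.85 in Lenti-AS. Its summed score was -1.74. A further minimum, at chr3:61880001-61890000, was shallow at -0.43. In HoxD 11 of 160 scored bins lay below the genome's 5th percentile of -1.37. In HoxC 2 of 112 did, and 0 of 84 in HoxA and 0 of 127 in HoxB. By definition 5% of all bins do so. Neighbouring bins share contacts, so these counts stand for few borders.

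HoxC held 3 borders in the lower part of the range of all bins. Among the 8009 local minima they ranked 1203, 2228 and 3238 by score, in the order given here. By depth below their surroundings they ranked 610, 4161 and 2171. The lowest, at chr7:144270001-144280000 with a summed score of -1.56, touches the unmeasured stretch and rests on 161, 188, 118 and 118 contacts in Lenti-GFP 1 and 2 and Lenti-AS 1 and 2. The other 2, at chr7:144970001-144980000 (-1.15) and chr7:144570001-144580000 (-0.89), have measured bins on both sides. At chr7:144970001-144980000 the libraries scored -1.22 and -1.16 in Lenti-GFP and -1.07 and -1.12 in Lenti-AS, and at chr7:144570001-144580000 -0.93 and -0.81 in Lenti-GFP and -0.999 and -0.86 in Lenti-AS. The second of these 2 lies close to the midpoint of the window, and there the groups overlapped.

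HoxB had its lowest score at chr10:84110001-84120000, again close to the middle of its window. It was -1.11 and -0.95 in Lenti-GFP and -0.93 and -0.94 in Lenti-AS, and -0.98 with the libraries summed, in the lowest 11.2% of bins. Among the 8009 local minima of the genome it ranked 2831 by score and 1314 by depth below its surroundings. The next 2 minima were shallower, at chr10:84730001-84740000 (-0.53) and chr10:84610001-84620000 (-0.26). In HoxA the lowest minima were at chr4:81820001-81830000 (-0.60) and chr4:82640001-82650000 (-0.43), and another, at chr4:82410001-82420000, scored 0.73 and is a dip among high values. The first and the last of these lie less than 200 kb from unmeasured stretches, within the reach of the score. HoxB, HoxC and HoxD each had a minimum in the central 200 kb of the window, and that stretch could not be scored in HoxA. Such minima are common, with 8009 over the 228787 scored bins of the genome. How many other stretches of 200 kb hold one was not counted.

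**Figure D2:**
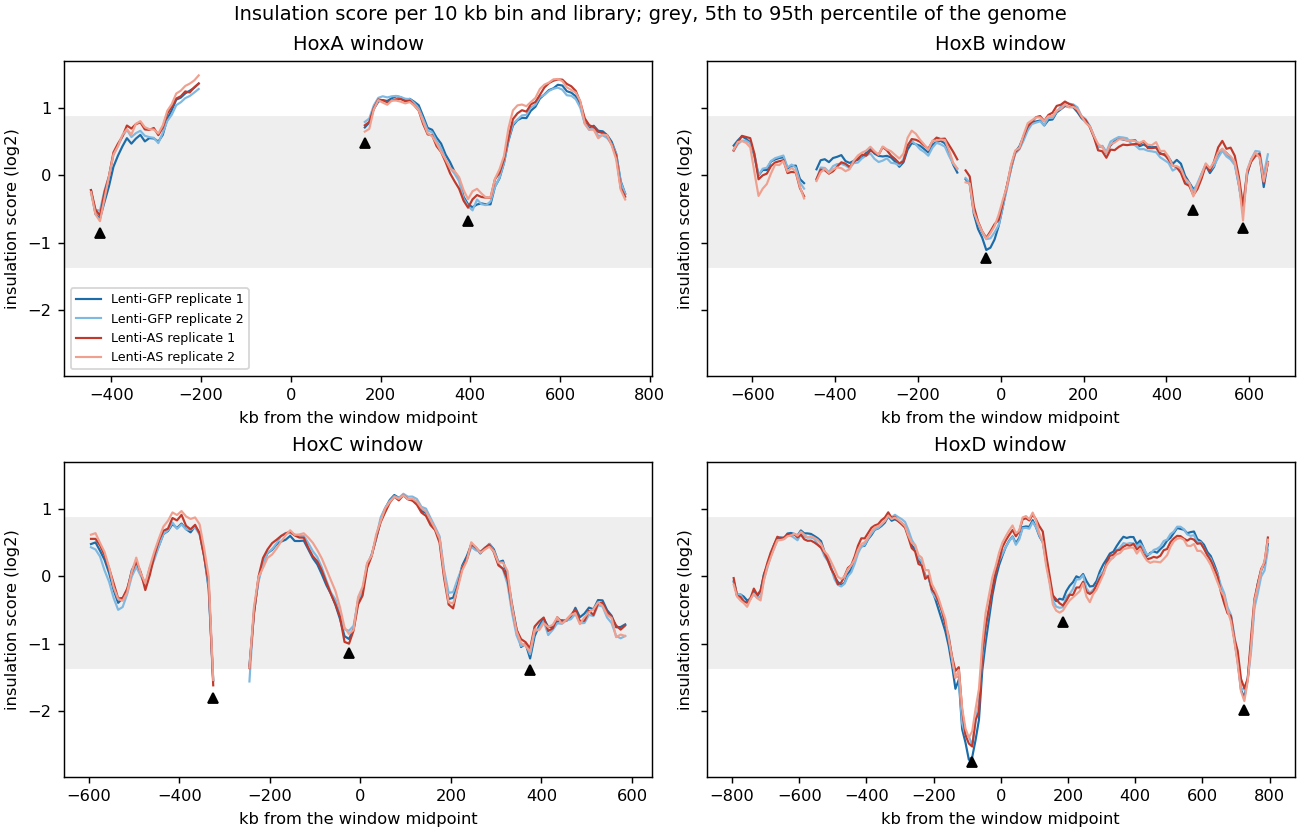
Insulation score (log2 of observed over expected contacts across a bin) per 10 kb bin against its distance in kb from the window midpoint, 1 line per library (Lenti-GFP blue, Lenti-AS red). Grey bands span the genome's 5th to 95th percentile, black triangles mark the 3 lowest minima of each window and gaps are bins without a score. The 4 lines run together, and the HoxD minimum at -2.51 leaves the band by the widest margin.

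The borders were seen in each library. Within a window the scores of the 2 Lenti-GFP libraries correlated over bins with r from 0.989 to 0.996 and those of the 2 Lenti-AS libraries with r from 0.983 to 0.993. The group means correlated with r from 0.983 to 0.996. Neighbouring bins share most of their contacts, so these values describe the profiles and are no test. The median gap between replicates was between 0.038 and 0.060 on the log2 scale in all 4 windows.

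Contacts turned from one side to the other over a few bins at the HoxD border. This was measured as log2 of the ratio of contacts with the 20 to 500 kb after a bin to those with the same distance before it. At chr3:61580001-61590000 it was -2.74 and -2.69 in Lenti-GFP and -2.49 and -2.18 in Lenti-AS, from 992 contacts before and 170 after the bin. At chr3:61640001-61650000, 60 kb further on, it was 2.58 and 3.69 in Lenti-GFP and 3.43 and 3.51 in Lenti-AS, from 83 contacts before and 797 after. Every library changed sign between them. In HoxB the turn was smaller, from -1.57 at chr10:84080001-84090000 to 2.07 at chr10:84160001-84170000 with the libraries summed, and it too was present in each library. Both turns were read from bins on either side of an insulation minimum. They share contacts with its score, so they describe the same border and are no separate result.

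Strong long-range contacts of HoxD ended beside this border. The pair with the highest ratio at 50 kb or more and with at least 20 contacts joined chr3:60980001-60990000 to chr3:61580001-61590000, 600 kb apart. It held 32 and 43 contacts in Lenti-GFP and 27 and 21 in Lenti-AS, which is 56.9 and 65.0 times the expected number in Lenti-GFP and 61.5 and 51.0 times in Lenti-AS. The groups overlapped. With the libraries summed it held 123 contacts where 2.08 were expected, a ratio of 59.3. The next pair by ratio, at 27.1, joined the neighbouring bin chr3:60970001-60980000 to the same bin.

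On the other side of the border, chr3:61620001-61630000 met chr3:62420001-62430000, 800 kb away, with 37 contacts and a ratio of 26.1. Below these top 3 pairs, and chosen after their values were seen, the same bin also met chr3:61960001-61970000, 340 kb away, with 26 and 31 contacts in Lenti-GFP and 17 and 16 in Lenti-AS and a summed ratio of 21.3. Before the border, likewise, chr3:61220001-61230000 and chr3:61580001-61590000 held 87 contacts, a ratio of 22.1. The far end of the 800 kb contact is the same bin as the second border of the window. Thus the bins on either side of the main border each held strong contacts away from it and toward their own side.

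The other windows had strong contacts of a lower ratio. In HoxC, chr7:144600001-144610000 and chr7:144780001-144790000, 180 kb apart, held 42 and 51 contacts in Lenti-GFP and 38 and 39 in Lenti-AS, a summed ratio of 20.4. The 2 pairs that followed, at 19.97 and 18.7, shared one of these bins. In HoxA, chr4:82320001-82330000, close to the unmeasured middle, met chr4:82980001-82990000 at a ratio of 20.3 and chr4:82640001-82650000 at 17.8. The next pair of HoxA joined chr4:82720001-82730000 to chr4:82900001-82910000 at 17.7. The bin chr4:82640001-82650000 was also a minimum of the insulation score.

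In HoxB the top pair joined chr10:84140001-84150000 to chr10:84730001-84740000, 590 kb apart, at a summed ratio of 15.5. Its 33 contacts were spread unevenly, with 6 and 14 in Lenti-GFP and 11 and 2 in Lenti-AS, so that replicates of 1 group differed more than the groups. The second was a 50 kb pair of chr10:84730001-84740000 at 15.0 with 402 contacts, and the next was the neighbour of the first at 14.9. All 3 met chr10:84730001-84740000, a minimum of the insulation score.

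The middle of each window was then set against its sides. In place of the gene clusters, which were not placed on rn6 here, the central 200 kb around the window midpoint was used. The rest of the window was the side before and the side after. A block needed 20% of its pairs measured, which held for 14 of 16. For comparison 4 like blocks were computed in tiles of 1400 kb over the rest of the genome.

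The centre of HoxD had fewer contacts than expected with the side before it and, with distance alone in the expected number, more with the side after it. The main border lies at the start of this centre (chr3:61600001-61800000). The low ratio with the side before thus shares contacts with the score of that border and is no separate result. The tiles were not placed on borders. With the side before, the ratio was 0.340 and 0.328 in Lenti-GFP and 0.345 and 0.343 in Lenti-AS (0.338 with the libraries summed, interval 0.324 to 0.352), and 55 of 1870 tiles were lower. With the side after it was 1.555 and 1.557 in Lenti-GFP and 1.599 and 1.64 in Lenti-AS, higher than in 88.8% of tiles. Within the centre itself it was 1.18 and 1.22 in Lenti-GFP and 1.29 and 1.37 in Lenti-AS. With the cis contacts of both bins added to the expected number, the mean over libraries went from 1.59 to 1.06 with the side after, from 1.26 to 0.87 within the centre and from 0.339 to 0.256 with the side before. By 100 kb segments the ratio with the side before fell from 1.22 at its far end to 0.217 at 250 kb from the midpoint, where the 5th percentile of tiles was 0.26. The segment at 750 kb after the midpoint had 2.82.

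The levels of HoxB, HoxC and HoxA that follow have distance alone in the expected number. In HoxB too the centre had more contacts with the side after. It met that side at 1.85 and 1.85 in Lenti-GFP and 1.97 and 1.97 in Lenti-AS, above 95.96% of tiles, and met the side before at 0.87 and 0.92 in Lenti-GFP and 0.97 and 0.91 in Lenti-AS, near the middle of the tiles. All 5 segments after the centre lay above 1, between 1.36 and 2.46. Of the 5 before it 2 lay above 1, and the farthest had 0.476.

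HoxC met the side after at 1.68 and 1.71 in Lenti-GFP and 1.66 and 1.66 in Lenti-AS. This came mainly from the first 100 kb, with a ratio of 2.59, while the last 2 segments had 0.336 and 0.25. The centre met the side before at 0.93, with 2.20 in the segment chr7:144300001-144400000 and 0.223 to 0.949 in the other 4. The unmeasured stretch lies in that segment and in the one before it (0.492). At 450 and 550 kb from the midpoint the ratios of HoxC were below those of HoxB on both sides.

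In HoxA, the 6 measured bins of the centre lie at its edges. They met the side after at 1.76 and 1.91 in Lenti-GFP and 1.91 and 1.95 in Lenti-AS, above 95.8% of tiles. The segments from 350 kb to 650 kb after the midpoint had ratios from 2.38 to 3.75, all but the lowest above the 95th percentile of tiles at their distance. The block with the side before had 19.8% of its pairs measured, under the minimum, and 4 of its segments ranged from 1.11 to 1.77. Contacts from side to side across the centre were below 1 in HoxA (0.638), HoxC (0.723) and HoxD (0.800) and 1.11 in HoxB, all within the range of most tiles.

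**Figure D3:**
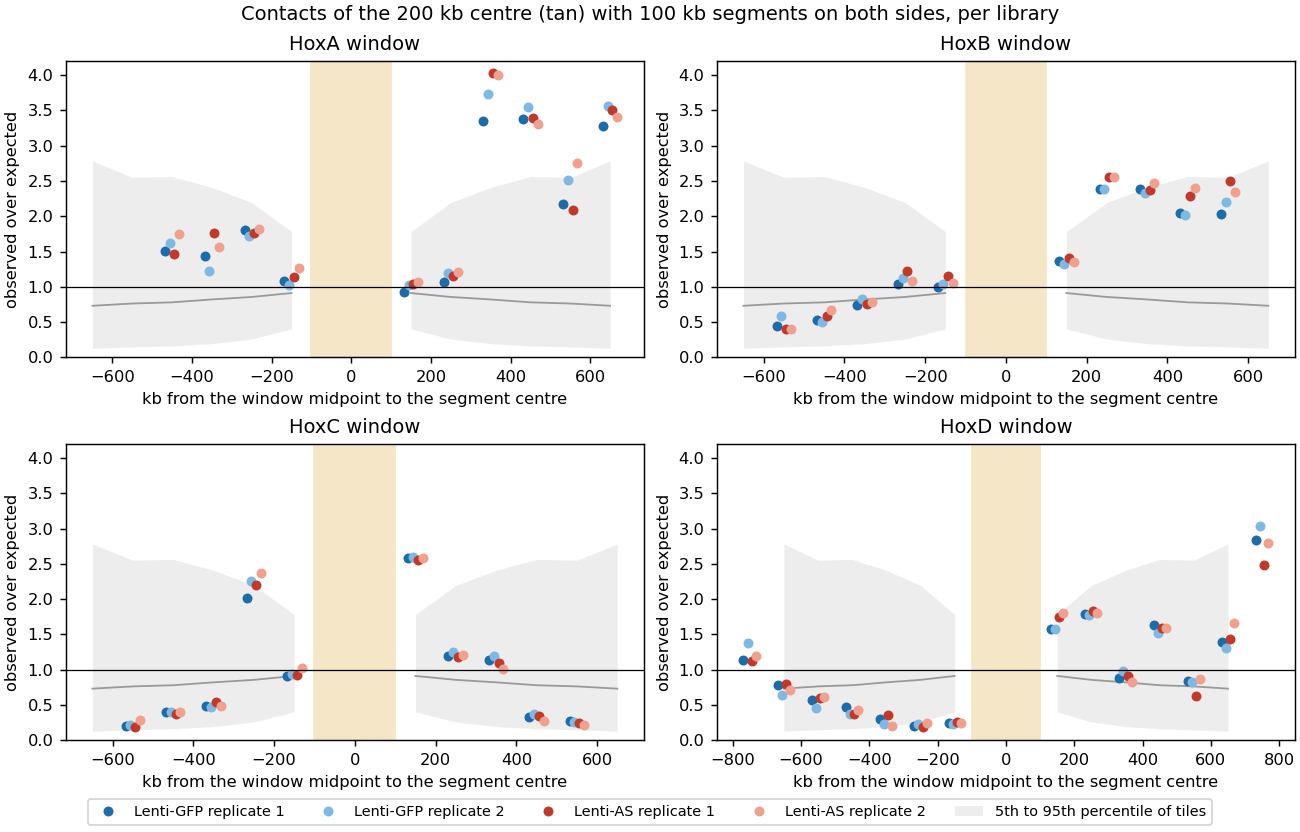
Observed over expected contacts of the central 200 kb of each window (tan) with 100 kb segments on both sides, 1 point per library (Lenti-GFP blue, Lenti-AS red), against the distance in kb from the window midpoint. Grey bands and lines give the 5th to 95th percentile and the median of the same segments in tiles of the genome, and the black line is the expected level of 1. In HoxD the points before the centre fall to 0.217 with the libraries summed (0.18 to 0.25 in single libraries), and in each window most points after the centre lie above 1.

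The groups were then compared block by block. With 2 libraries against 2 the two-sided exact permutation test cannot go below p = 0.33, so no block could pass a threshold of 0.05. In 9 of the 14 measured blocks the groups did not overlap, 5 higher and 4 lower in Lenti-AS. Over all tiles 57.9% of blocks did not overlap, so the share in the Hox windows was close to the background. The log2 difference between Lenti-AS and Lenti-GFP ran from -0.10, for HoxC from side to side, to 0.15, within the centre of HoxD, and the median was 0.05 against 0.00 in the tiles.

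The differences of the single blocks were small beside their levels. Within the centre of HoxD Lenti-GFP had a mean of 1.199 ± 0.030 and Lenti-AS one of 1.33 ± 0.056 (± SD over n = 2, p = 0.33 by the exact permutation test). Both Lenti-AS libraries were higher, but with a centre of 100 kb the log2 difference was -0.03. In HoxB the centre with the side after went from 1.849 ± 0.002 to 1.97 ± 0.003 (SD, n = 2, same p). Each SD comes from 2 values and is smaller than the counting error. With the libraries summed the counting interval was 1.86 to 1.93, and the means of HoxB lie below and above it. That interval is for the 4 libraries together and is no test of the difference. With the cis contacts of both bins added to the expected number, 7 of the 14 blocks turned direction, the block within the centre of HoxD among them (-0.05). The contact of the HoxD centre with the side before was 0.334 ± 0.008 in Lenti-GFP and 0.344 ± 0.001 in Lenti-AS. Both means lie within the counting interval of the libraries summed, 0.324 to 0.352. Of the 44 measured segments 20 did not overlap, 15 higher and 5 lower in Lenti-AS, against 43.3% of the segments in tiles (20.8% higher and 22.5% lower).

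**Figure D4:**
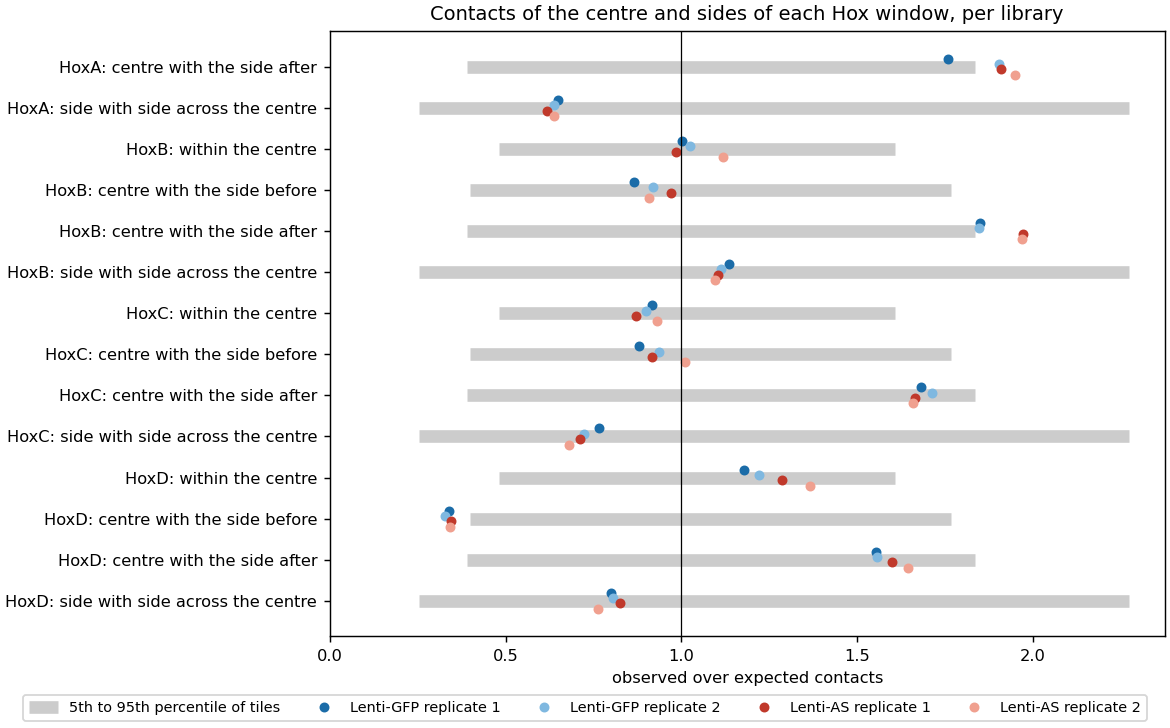
Observed over expected contacts of the 14 measured blocks (within the centre, centre with either side, side with side), 1 point per library (Lenti-GFP blue, Lenti-AS red). Grey bars span the 5th to 95th percentile of the same block in tiles of the genome, and the black line is the expected level of 1. The HoxD centre with the side before lies near 0.34 in all 4 libraries, left of its bar.

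Pairs of bins were tested over the whole genome for a change with Egr2-AS. None of the 789 pairs of 50 kb bins tested in the windows passed (edgeR quasi-likelihood, adjusted p at most 0.05), where 435 of 583792 pairs of the genome did, a background of 0.0745%. An unadjusted p below 0.05 was found for 69 of the 789 (8.75%), against 7.78% of all pairs, and DESeq2 called none (0.000856% of all pairs) and had 7 with such a p (0.832% of all pairs). The median log2 change was 0.01 over the members and 0.00 over the genome.

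The 50 kb pairs with the lowest p in each window were neighbours, and each was higher in Lenti-AS without passing. In HoxC, chr7:144800001-144850000 with chr7:144850001-144900000 held 597 and 664 contacts in Lenti-GFP and 539 and 510 in Lenti-AS, or 2.37 and 2.28 against 2.737 and 2.732 times the expected number. That is a log2 change of 0.24 (SE 0.07, edgeR adjusted p = 0.15). In HoxB, chr10:84600001-84650000 with chr10:84650001-84700000 had a log2 change of 0.31 (edgeR adjusted p = 0.18). In HoxA, chr4:82750001-82800000 with chr4:82800001-82850000 had 0.26 (edgeR adjusted p = 0.21) with all libraries. It had 0.42 without Lenti-GFP replicate 2 (edgeR adjusted p = 0.048) and 0.14 without Lenti-GFP replicate 1 (edgeR adjusted p = 0.87). In HoxD, chr3:61750001-61800000 with chr3:61800001-61850000 had 0.25 (edgeR adjusted p = 0.27). With the cis contacts of both bins added to the expected number, the pairs of HoxA and HoxD turned direction (-0.08 and -0.04) and those of HoxB and HoxC had 0.09 and 0.05.

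With bins of 100 kb 1 pair of 320 passed. It joined chr7:144100001-144200000 to chr7:144200001-144300000 in HoxC, with 1159 and 1327 contacts in Lenti-GFP and 1009 and 1019 in Lenti-AS, or 2.496 and 2.47 against 2.80 and 2.98 times the expected number. The log2 change was 0.22 (SE 0.05, edgeR adjusted p = 0.014). In the genome 0.369% of such pairs passed, so 1 of 320 (0.312%) was at the background. Part of the second bin lies in the unmeasured stretch.

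At 10 kb 2267 pairs of the windows had a mean count of at least 10, and none passed, against 118 of 781071 in the genome, or 0.0151%. An unadjusted p below 0.05 was found for 180 of them (7.94%, against 7.46% of all pairs), and DESeq2 called none (0.000512% of all pairs) and had 19 with such a p (0.681% of all pairs). The log2 changes ranged from -1.18 to 1.16. The lowest p of each window belonged to neighbouring bins. In HoxA, chr4:82800001-82810000 with chr4:82810001-82820000 held 90 and 97 contacts in Lenti-GFP and 107 and 88 in Lenti-AS, a log2 change of 0.57 (SE 0.15, edgeR adjusted p = 0.18).

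One of these pairs lay at the border of HoxB, chr10:84110001-84120000 with chr10:84120001-84130000, with 43 and 38 contacts in Lenti-GFP and 48 and 47 in Lenti-AS (log2 change 0.74, SE 0.22, edgeR adjusted p = 0.28). In HoxC it was chr7:144070001-144080000 with chr7:144080001-144090000, at 0.88 (edgeR adjusted p = 0.20), and in HoxD chr3:62200001-62210000 with chr3:62210001-62220000, at -0.90 (edgeR adjusted p = 0.22). None of these differences passed the test. Without Lenti-AS replicate 1 the pair of HoxC had 0.53 and that of HoxD -1.38. Without Lenti-AS replicate 2 they had 1.15 and -0.56.

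Insulation was the only cis measure with many calls. Of 483 scored bins of the windows, 35 passed (7.25%, edgeR adjusted p at most 0.05), 25 of them upward and 10 downward in Lenti-AS. In the genome 12.8% of bins passed, so the share in the Hox windows was below that of all bins, although HoxA alone had 15.5% (13 of 84). By direction 5.18% of the Hox bins were higher and 2.07% lower, against 5.6% and 7.16% of all bins. Neighbouring bins share contacts, so these counts stand for few separate stretches. DESeq2 called 0 of the 483, where it called 0.97% of all bins, and had 31 at an unadjusted p below 0.05, against 11.5% of all bins. With windows of 100 kb and 500 kb in place of 200 kb, edgeR called 15 bins (13 higher and 2 lower) and 9 bins (all lower), where 4.76% and 23.1% of all bins were called.

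The called bins were small changes in 12 stretches, none of them at a lowest minimum of a window. In HoxA 13 bins were higher, in 4 stretches. At chr4:82650001-82660000, next to the minimum at chr4:82640001-82650000, the ratio across the bin was 0.72 and 0.697 in Lenti-GFP and 0.78 and 0.85 in Lenti-AS, a log2 change of 0.20 (SE 0.06, edgeR adjusted p = 0.022). At chr4:81900001-81910000 it was 1.46 and 1.54 in Lenti-GFP and 1.69 and 1.701 in Lenti-AS, a log2 change of 0.17 (edgeR adjusted p = 0.0047). The groups did not overlap at either, but called bins were picked for a difference, so this adds little to the calls.

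In HoxD 6 called bins were higher and 8 lower. The bin chr3:61650001-61660000, 40 kb past the main border, had a ratio of 0.51 and 0.59 in Lenti-GFP and 0.596 and 0.69 in Lenti-AS, a log2 change of 0.22 (SE 0.07, edgeR adjusted p = 0.030), and the libraries of the 2 groups nearly touched. A further 5 higher bins lay between chr3:61700001 and chr3:61780000, with log2 changes of 0.13 to 0.15. The largest of them, at chr3:61770001-61780000, went from 1.67 and 1.65 to 1.82 and 1.86 (edgeR adjusted p = 0.012). These bins are in the part of the window where the block within the centre was higher too, and both are made from the same contacts.

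The 8 lower bins of HoxD lay further on. The bin chr3:61920001-61930000 had 1.001 and 0.97 in Lenti-GFP and 0.89 and 0.83 in Lenti-AS, a log2 change of -0.19 (SE 0.06, edgeR adjusted p = 0.016). The other 7 lay between chr3:62170001 and chr3:62260000, with log2 changes from -0.18 to -0.14. At chr3:62190001-62200000 the ratio was 1.45 and 1.46 in Lenti-GFP and 1.33 and 1.24 in Lenti-AS (edgeR adjusted p = 0.0056). At both places the groups did not overlap, which again adds little to the calls.

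HoxB and HoxC had few called bins. In HoxB 1 of 127 was higher, at chr10:83860001-83870000 (log2 change 0.18, edgeR adjusted p = 0.012), and 2 were lower, at chr10:83560001-83570000 and chr10:83570001-83580000 (-0.18 at each, edgeR adjusted p = 0.034 and 0.020). These 2 lower bins had -0.060 and -0.090 without Lenti-AS replicate 2, and -0.31 and -0.29 without Lenti-AS replicate 1. In HoxC 5 of 112 were higher. At chr7:144030001-144040000 the log2 change was 0.17 (edgeR adjusted p = 0.016), and at chr7:144200001-144210000, where the ratio went from 1.72 and 1.71 to 1.89 and 1.96, it was 0.16 (edgeR adjusted p = 0.014). With the cis contacts of both bins added to the expected number these 2 bins turned direction (-0.015 and -0.020). The calls depended on the libraries and the scaling. Without Lenti-AS replicate 2 none of the 35 passed, where 4882 of 228649 bins of the genome did. Without Lenti-GFP replicate 1 a total of 10 bins passed, where 10670 of the genome did. With the cis contacts of both bins added to the expected number 4 bins passed, all lower, where 8712 bins of the genome were higher and 4050 lower.

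Trans contacts, between different chromosomes, were counted for the 6 pairs of windows and set beside 1718542 pairs of 1400 kb tiles. The number expected came from the trans totals of both windows. HoxA and HoxB met more often than nearly all tile pairs. They held 26 and 19 contacts in Lenti-GFP and 20 and 14 in Lenti-AS, together 79 where 22.1 were expected. The ratio was 3.57 (interval 2.82 to 4.45), above 99.6% of all pairs and above 99.8% of the 317819 pairs with like trans totals (within 10%). Each library was above 2.01, the genome's 95th percentile with the libraries summed. The ratios were 4.21 and 2.78 in Lenti-GFP and 4.301 and 3.13 in Lenti-AS. Ratios of single libraries rest on fewer contacts, so that percentile is no like reference for them.

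The neighbourhood of this contact was examined. HoxA met HoxB at a higher ratio than any of the other tiles of chromosome 10 (79 tiles, HoxB included, median 1.41), and HoxB met HoxA at a higher ratio than any other tile of chromosome 4 (129 tiles, HoxA included, median 0.633). Of the 10191 tile pairs of these 2 chromosomes 13 had a higher ratio, and the chromosomes as a whole met at 0.978. The 79 contacts fell on 79 different pairs of 10 kb bins, spread over 56 bins of HoxA and 60 of HoxB, and 2 of them joined the central 200 kb of both. The contact was thus broad, with no single pair of bins standing out, and the middle of HoxA was unmeasured.

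The other 5 pairs were higher than the median tile pair of 0.908 but within its usual range of 0.298 to 2.01. HoxA and HoxC had 48 contacts, a ratio of 1.75 (interval 1.29 to 2.32). HoxB and HoxC had 55 and 1.68 (1.27 to 2.19). HoxA and HoxD had 33 and 1.49, HoxB and HoxD 34 and 1.29, and HoxC and HoxD 34 and 1.04. In that order these 5 lay above 91.4%, 90.0%, 84.9%, 76.4% and 60.7% of all tile pairs. The intervals cover counting error only, and the spread of the tile pairs is wider. All 6 together, HoxA with HoxB included, held 283 contacts where 163 were expected, a sum that was not set against other sets of windows.

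None of the 6 pairs passed the test for a difference between the groups over all tile pairs (edgeR, adjusted p of at least 0.998 for each), where 2 of 1573320 were called, or 0.000127%. No Hox pair had an unadjusted p below 0.05, as 4.51% of all tile pairs did. HoxA and HoxD had 9 and 13 contacts in Lenti-GFP and 6 and 5 in Lenti-AS. This was the one pair whose ratios did not overlap, as was the case for 33.7% of all tile pairs, and for 16.8% with Lenti-AS lower as here. For HoxA and HoxB the log2 change was 0.11 with an SE of 0.33, and the difference was smaller than its error.

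**Figure D5:**
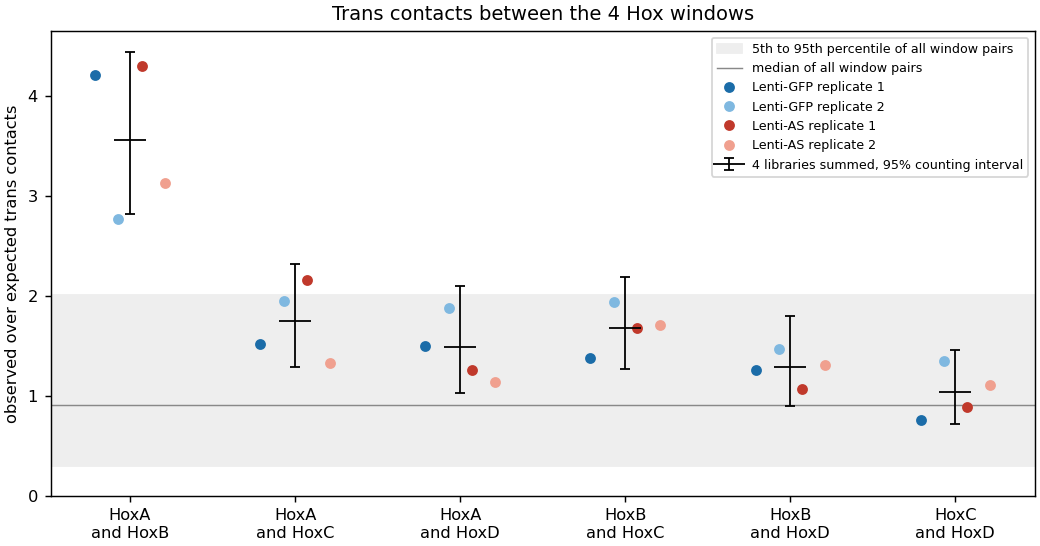
Observed over expected trans contacts of the 6 pairs of Hox windows, 1 point per library (Lenti-GFP blue, Lenti-AS red). Black bars give the 4 libraries summed with the 95% counting interval. The grey band is the 5th to 95th percentile of all tile pairs and the grey line their median of 0.908, both with the libraries summed. HoxA and HoxB, at 3.57, lie above the band in each library.

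The windows also differed in the share of their contacts that were trans. HoxC had 19.9% and 19.8% in Lenti-GFP and 18.9% and 19.0% in Lenti-AS, above most windows of the genome, whose median was 14.6%. HoxD had 11.1% and 11.3% in Lenti-GFP and 11.7% and 11.4% in Lenti-AS. HoxB lay at 15.4% and HoxA at 12.9% with the libraries summed. The groups did not overlap in any of the 4 windows, nor in 77.7% of 1909 windows of the genome. The trans share of the whole library was 12.6% and 12.8% in Lenti-GFP and 13.03% and 12.97% in Lenti-AS.

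In HoxA and HoxC the share was lower in Lenti-AS. In HoxA it was 13.03% and 12.99% in Lenti-GFP and 12.96% and 12.8% in Lenti-AS. In HoxC it fell by 0.87 percentage points from Lenti-GFP to Lenti-AS, while the median window rose by 0.44, and 0.47% of windows fell by more. In 205 of 1909 windows, or 10.7%, the shares of Lenti-AS were all below those of Lenti-GFP. Tested bin by bin with TMM scaling, the median log2 change of trans contacts was -0.12 over the 113 bins of HoxC, 22 of them positive, against 0.0015 over all bins.

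No single bin carried this difference past the test. None of the 520 bins of the 4 windows passed (edgeR adjusted p at most 0.05), against 0.112% of 257576 bins in the genome. Of the 520, 39 had an unadjusted p below 0.05 (7.5%, against 9.03% of all bins), and DESeq2 called none (0.0217% of all bins) and had 5 with such a p (1.11% of all bins). The lowest p was in HoxC at chr7:144110001-144120000, with 185 and 195 trans contacts in Lenti-GFP and 102 and 90 in Lenti-AS, a log2 change of -0.52 (SE 0.14, edgeR adjusted p = 0.11). It passed without Lenti-GFP replicate 2 (edgeR adjusted p = 0.036) and did not without any other library (edgeR adjusted p from 0.44 to 0.57).

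In the other windows the bins with the lowest p did not pass either. In HoxD chr3:61920001-61930000 had 99 and 130 trans contacts in Lenti-GFP and 133 and 101 in Lenti-AS, a log2 change of 0.50 (edgeR adjusted p = 0.16). The same bin was called lower in insulation. In HoxA chr4:82740001-82750000 had a log2 change of -0.46 (edgeR adjusted p = 0.23), and in HoxB chr10:83940001-83950000 one of 0.40 (edgeR adjusted p = 0.35). In HoxD 83 of 160 bins were positive, with a median of 0.01.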

How the data were processed

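Hi-C of 4 libraries was used, 2 of each group, grouped by their titles. The authors deposited raw counts of contacts between 10 kb bins, per library, made with HiC-Pro (version not given in the sources used here) on rn6 (Rnor_6.0), which the submitters' processing notes name. Matrices that the authors merged and balanced per group were not used here. Bins with fewer cis contacts, summed over libraries, than 0.25 of the median were left out. Expected contacts were each library's mean at the same distance. Pairs within 1.6 Mb whose mean count reached 10, insulation squares (same minimum), trans tile pairs (mean of at least 2) and trans bins (filterByExpr, TMM) were tested over the whole genome with edgeR 4.0.16 (quasi-likelihood, two-sided, Benjamini-Hochberg) with group as the only term. DESeq2 1.42.0 was an alternative. The edgeR fits of 50 kb pairs and of insulation bins were tested on simulated counts, with changes larger than those called here. The other steps were not tested in this way. The depth of each library is given above, and its precision by the intervals. Named were all called pairs or bins where 10 or fewer, otherwise the 2 largest rises and falls per window, and where none passed the lowest p. Also named were 3 insulation minima and 3 strong contacts per window, and the Hox genes with their neighbours. The minimum of 20 contacts for strong contacts and the midpoint as centre were chosen after seeing the data. The members and lists were chosen with earlier results of these data known. Titles and descriptions number the replicates of all 4 libraries differently, and the titles were used.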

Additional observations from a re-analysis of the deposited data

How the results depend on the processing

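Single 10 kb pairs far apart held few contacts and trans pairs of the Hox windows at most 26 per library, and the 2 libraries of a group limit the precision. The 35 insulation calls of the windows became 4 with the cis contacts of both bins added to the expected number, 0 with DESeq2, 15 with a window of 100 kb, 9 with one of 500 kb, and 0 to 21 with 1 library left out. They were 10 without Lenti-GFP replicate 1, 21 without Lenti-GFP replicate 2, 19 without Lenti-AS replicate 1 and 0 without Lenti-AS replicate 2, where the genome had 10670, 30336, 17441 and 4882 calls, against 29173 with all libraries. With the replicate number as a block they became 71 (49 higher and 22 lower), where the genome had 42558, and the block changed no other count of calls. The numbers were not taken as a pairing, since the difference of replicates 1 and 2 correlated between the groups with r = 0.15 over 227613 bins and there are only 2 pairs. With 1 library left out, calls of 50 kb pairs ranged from 0 to 1 and those of trans bins from 0 to 1, both 1 without Lenti-GFP replicate 2, where the genome had 225 of 583792 pairs and 1039 of 258060 bins. With bins of 100 kb 1 pair was called. The 10 kb pairs without a filter were not run, and a mean count of at least 5, chosen after seeing the data as were the centres of 100 and 300 kb, gave 0 calls. The counts of blocks not overlapping (6 to 13) and of blocks above expected (5 to 10) stayed within 1.5 times the main count. With 1 library left out, overlap was judged on 1 library against 2. Groups are then more easily apart, so those counts are not like the main one.

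Some log2 differences turned sign, and the cause was not tested. With the cis contacts of both bins, this held for the 50 kb pairs of HoxA at 82750001 (-0.077) and HoxD at 61750001 (-0.041), for the insulation bins of HoxC at 144030001 (-0.015) and 144200001 (-0.020), and for the blocks of HoxA with the side after (-0.062), HoxB within the centre (-0.083) and with the side before (-0.038), HoxC with the side after (0.043), and HoxD within the centre (-0.052), with the side before (-0.081) and with the side after (-0.037). With the expected number from all contacts, HoxA and HoxC had -0.158 and HoxB and HoxC -0.121. From side to side HoxD had 0.022 with sides of 300 kb, and within the centre HoxC had 0.0999 for pairs at least 50 kb apart. With a centre of 100 kb, HoxB from side to side had 0.010, HoxC within the centre 0.129, HoxD within the centre -0.028 and HoxD from side to side 0.027. With a centre of 300 kb HoxC within the centre had 0.0017. With 1 library left out, values ranged from -0.176 to 0.421 for HoxA and HoxB, -0.393 to 0.303 for HoxA and HoxC, -0.196 to 0.291 for HoxB and HoxC, and -0.431 to 0.379 for HoxC and HoxD. For blocks they ranged from -0.039 to 0.144 for HoxB within the centre, -0.061 to 0.033 for HoxC within the centre and -0.073 to 0.040 for HoxD from side to side.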
